A study of Mus musculus with 16 samples.

Results

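The genes described here are 7 trace amine receptors of the mouse that are not part of the Taar7 or Taar8 subfamilies: Taar1, Taar2, Taar3, Taar4, Taar5, Taar6 and Taar9. They were taken by gene symbol. Each has 1 probe set on the array, so the 7 genes are 7 of the 19505 genes measured and 7 of the 15 trace amine receptors among them. All mice carried the S100a5-tauGFP reporter, in which green fluorescent protein (GFP) follows S100a5, whose transcription rises with activity in olfactory sensory neurons. The stimulus was octanoic acid, which is an odorous fatty acid, or filtered clean air, the vehicle, for 24 mice of both sexes aged 7 to 12 weeks. Each mouse spent 40 h alone in a chamber flushed at 3.1 L/min and received the stimulus from 26 h on, in pulses of 10 s at intervals of 20 min. A pool was the olfactory mucosa of 3 mice, and fluorescence-activated cell sorting split each of the 8 pools into GFP+ and GFP- cells, which gave 4 groups of 4 Clariom S arrays: octanoic acid GFP+, octanoic acid GFP-, clean air GFP+ and clean air GFP-.

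Trace amine receptors are G protein-coupled receptors for volatile amines. In the olfactory epithelium a neuron expresses a single receptor gene, either 1 trace amine receptor or 1 odorant receptor, and trace amine receptors signal through the same cascade as odorant receptors, with the G protein Golf, adenylyl cyclase III and a cyclic nucleotide-gated channel. Taar1 is the exception in the family: it is known from the brain, where it senses trace amines, and is not an olfactory receptor, so it serves here as the dim comparison. Octanoic acid is a carboxylic acid and not an amine.

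Of the 7 genes, 5 have a sequence window around the annotated start in the RefSeq table used here (build GRCm38.p6). Each window runs from 250 bases before that start to 50 bases after it. In all 5, the first 3 bases after the start read ATG, so these windows hold the sequence just upstream of the coding start. The windows of Taar9, which had the largest positive difference between GFP+ and GFP- cells over all 8 pools, just above Taar4, and of Taar2, which had the largest negative one, are shown because these genes stood at opposite ends of the 7 over all 8 pools. They lie at chr10:24109485-24109784 on the minus strand (Taar9) and chr10:23938322-23938621 on the plus strand (Taar2). Capitals mark the ATG and any match to a motif searched.
Taar9: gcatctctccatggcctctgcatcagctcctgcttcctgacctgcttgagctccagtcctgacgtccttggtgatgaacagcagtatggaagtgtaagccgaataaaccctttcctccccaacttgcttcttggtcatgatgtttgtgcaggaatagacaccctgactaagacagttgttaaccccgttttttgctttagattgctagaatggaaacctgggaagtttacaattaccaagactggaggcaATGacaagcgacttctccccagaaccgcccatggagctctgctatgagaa
Taar2: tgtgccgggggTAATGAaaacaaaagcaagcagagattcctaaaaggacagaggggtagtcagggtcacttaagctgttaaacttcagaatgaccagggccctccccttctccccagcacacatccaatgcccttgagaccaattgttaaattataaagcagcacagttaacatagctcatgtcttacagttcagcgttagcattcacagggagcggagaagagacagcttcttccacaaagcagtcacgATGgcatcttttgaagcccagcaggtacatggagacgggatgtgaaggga
Motifs searched on both strands were CCCNNGGG, a sequence of the kind bound by Ebf proteins, and TAATTA and TAATGA, of the kind bound by homeodomain proteins such as Lhx2. Of 32851 windows of the same length, 13.7% hold the first, 5.29% the second and 9.78% the third. Among the 5 receptors the only match was TAATGA in the Taar2 window. A match is a run of letters and not a shown binding site.

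Values are log2 signals as deposited. As background the text uses 6.20 log2, the median over 5222 negative-control probe sets (5.80 to 6.77 on single arrays). Their 95th percentile was 10.4 log2, so probes without a target can read well above that median. Levels are compared between groups and not between genes, because each gene is read by other probes. The reporter gene S100a5 was higher in GFP+ cells by 1.53 ± 0.52 log2 with octanoic acid and by 1.32 ± 0.22 log2 with clean air (SD, n = 4 pools), which the sorting gate itself sets. Precision is limited by the count of pools, 4 per treatment. The GFP+ array of octanoic acid pool 3 had the lowest mean correlation with its group, 0.976, and without this pool the calls of Taar2, Taar4 and Taar9 held. P-values measure the spread between pools of 3 mice, and a signal from sorted cells cannot tell fewer cells of a type from less RNA per cell.

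Taar9 and Taar4 were higher in GFP+ cells in all 8 pools, and Taar2 was lower in all 8. With octanoic acid Taar9 was 6.19-fold higher and Taar4 6.01-fold higher, while Taar2 was at least 8.46-fold lower. With clean air the values were 5.10-fold higher for Taar9, 5.14-fold higher for Taar4 and at least 7.42-fold lower for Taar2. Of the 7 genes, 3 were higher and 2 lower with octanoic acid, where 6.26% of all genes were higher and 10.9% lower, or 17.2% in either direction. With clean air 3 were higher and 1 lower, against 5.83% and 9.58% of all genes, or 15.4% in either direction. Over all 8 pools 3 were higher and 2 lower, against 13.1% and 13.6% of all genes, or 26.7%. In each case 1 of the 3 higher genes was Taar5, which lay under the background on all 16 arrays. Negative controls fitted with the genes were called higher in 5.76% of cases with octanoic acid, 0.823% with clean air and 6.2% over all 8 pools. They were called lower in 0.153%, 0.364% and 0.211%. A call here is a Benjamini-Hochberg adjusted p under 0.05 over 19505 genes from limma on the within-pool differences, log2 GFP+ minus log2 GFP-.

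**Figure D1:**
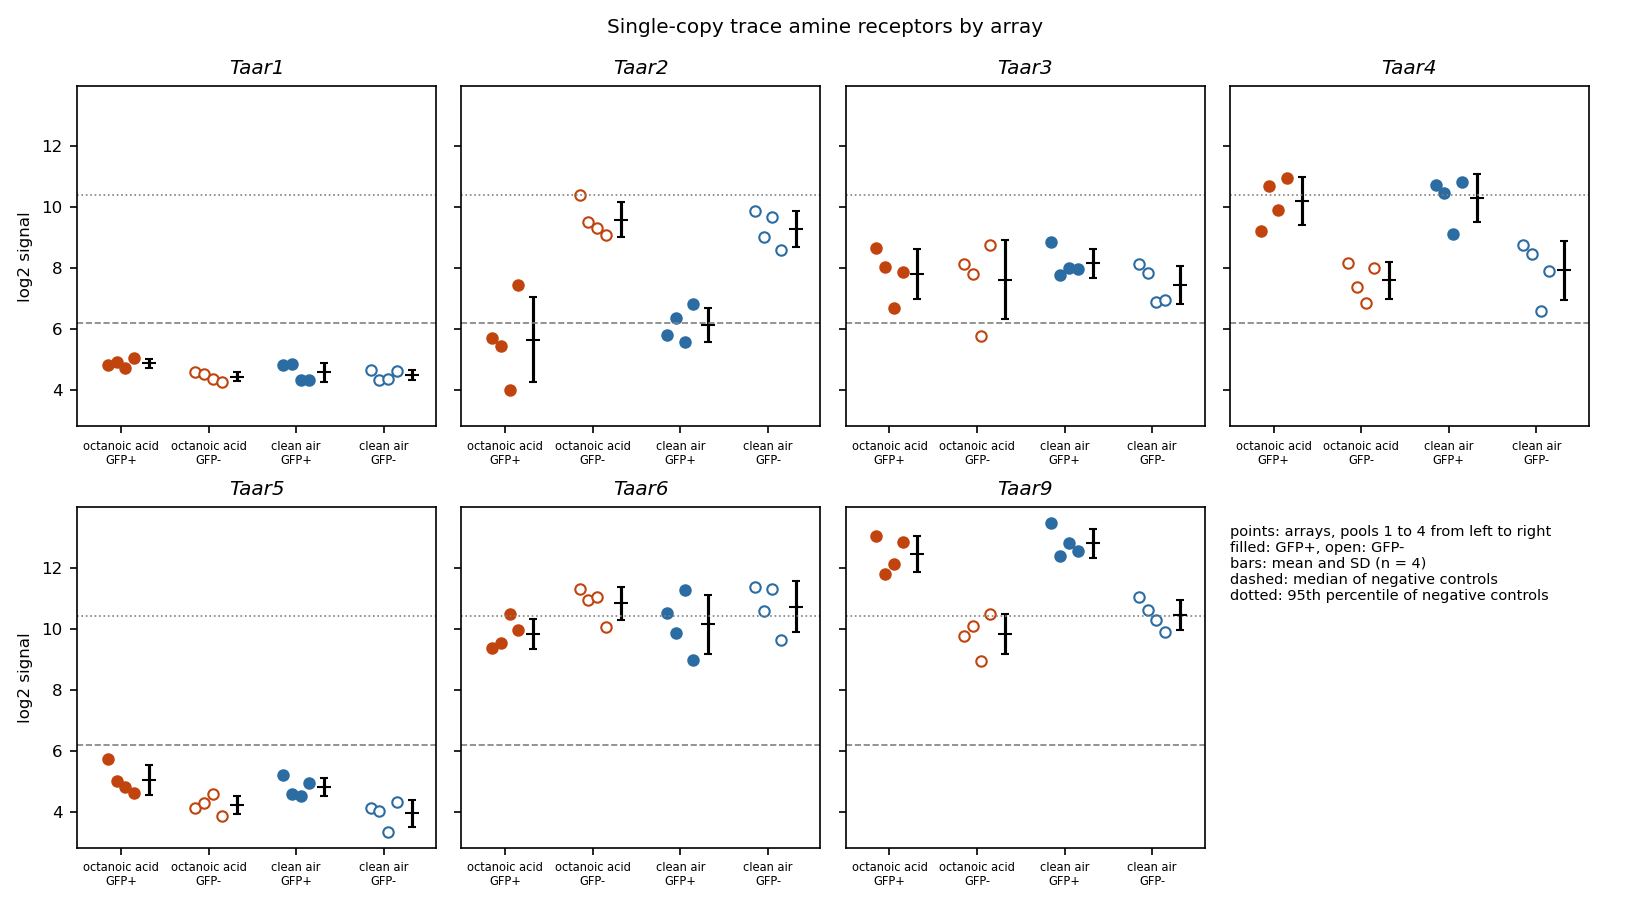
Log2 signal of each of the 7 genes on every array (vertical axis, log2), by group, with 4 pools per group, points for arrays (GFP+ filled, GFP- open), bars for the mean and SD, a dashed line at the background of 6.20 log2 and a dotted line at the 95th percentile of negative controls, 10.4 log2. Taar9 and Taar4 stand higher in GFP+ cells, Taar2 in GFP- cells, and every Taar1 and Taar5 value lies under the dashed line.

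Taar9 detects N-methylpiperidine among other amines. It read 13.05, 11.78, 12.13 and 12.86 log2 in GFP+ cells of octanoic acid pools 1 to 4, against 9.77, 10.08, 8.95 and 10.49 log2 in GFP- cells of the same pools. In clean air it read 13.47, 12.39, 12.82 and 12.54 log2 in GFP+ cells and 11.03, 10.62, 10.29 and 9.89 log2 in GFP- cells. All 16 arrays lay above the background, and the GFP+ and GFP- values did not overlap in either treatment. Of the 5222 negative controls, 97.8% were dimmer than the octanoic acid GFP+ mean and 94.6% dimmer than the GFP- mean. The within-pool difference averaged 2.63 ± 0.74 log2 with octanoic acid (SD, n = 4 pools, 95% interval 2.08 to 3.18, limma adjusted p = 1.47e-05). With clean air it averaged 2.35 ± 0.39 log2 (95% interval 1.80 to 2.90, limma adjusted p = 4.07e-05).

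Taar4, a receptor for phenylethylamine, an amine of carnivore urine, showed a difference of like size. Its GFP+ cells read 9.23, 10.70, 9.90 and 10.95 log2 with octanoic acid, against 8.17, 7.39, 6.85 and 8.01 log2 in GFP- cells. Clean air gave 10.74, 10.47, 9.14 and 10.84 log2 in GFP+ cells and 8.77, 8.48, 6.59 and 7.90 log2 in GFP- cells. The groups did not overlap, and pool 1 with octanoic acid had the smallest difference, 1.06 log2, against 2.94 to 3.30 in the other 3. Of all 16 arrays, 5 lay above the 95th percentile of the negative controls. Of these controls, 80.8% were dimmer than the GFP- mean with octanoic acid and 79.5% with clean air. For the GFP+ means these shares were 93.6% and 94.6%. The mean difference was 2.59 ± 1.03 log2 with octanoic acid (SD, n = 4 pools, 95% interval 1.89 to 3.29, limma adjusted p = 0.000113). It was 2.36 ± 0.47 log2 with clean air (95% interval 1.66 to 3.06, limma adjusted p = 0.000255).

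Taar2 ran the other way. GFP+ cells of octanoic acid pools read 5.73, 5.47, 4.01 and 7.44 log2, against 10.40, 9.53, 9.32 and 9.10 log2 in GFP- cells. GFP+ cells of clean air pools read 5.81, 6.38, 5.60 and 6.83 log2, against 9.87, 9.01, 9.69 and 8.60 log2 in GFP- cells. GFP- cells lay above GFP+ cells in every pool, and of all 16 arrays, 11 were above the background. None of the 16 lay above the 95th percentile of the negative controls. Of these controls, 94.0% were dimmer than the GFP- mean with octanoic acid and 90.4% with clean air. The difference was -3.93 ± 1.59 log2 with octanoic acid (SD, n = 4 pools, limma adjusted p = 0.000199) and -3.14 ± 1.14 log2 with clean air (limma adjusted p = 0.00122). The GFP+ mean of Taar2 was below the background in both treatments, so arrays under the background were raised to it and the folds are lower bounds. Pool 4 showed the smallest difference in both treatments, -1.67 log2 with octanoic acid and -1.78 log2 with clean air.

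Taar6 was above the background on all 16 arrays. GFP+ cells of octanoic acid pools read 9.38, 9.54, 10.48 and 9.96 log2, against 11.32, 10.93, 11.04 and 10.05 log2 in GFP- cells, lower in 4 of 4 pools. Clean air gave 10.50, 9.86, 11.27 and 8.99 log2 in GFP+ cells and 11.38, 10.60, 11.32 and 9.62 log2 in GFP- cells. The GFP+ and GFP- values overlapped in both treatments, although no pool was higher in GFP+ cells. With octanoic acid the mean difference was -0.99 ± 0.83 log2, or 1.99-fold lower (SD, n = 4 pools, limma adjusted p = 0.0246), with clean air -0.58 ± 0.36 log2 (limma adjusted p = 0.192), and over all 8 pools -0.78 ± 0.63 log2 (limma adjusted p = 0.00953). The octanoic acid call ended without pool 1 (-0.68 log2, limma adjusted p = 0.114) and without pool 2 (-0.86 log2, limma adjusted p = 0.0853). Without the pairing of GFP+ and GFP- cells in a pool the limma adjusted p was 0.159 with octanoic acid and 0.0827 over all 8 pools.

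Taar5, which senses trimethylamine, a constituent of male mouse urine, was dim throughout: none of its 16 arrays lay above the background. GFP+ cells averaged 5.04 ± 0.48 log2 with octanoic acid, against 4.22 ± 0.30 log2 in GFP- cells, and clean air gave 4.81 ± 0.31 log2 in GFP+ cells and 3.95 ± 0.44 log2 in GFP- cells (SD, n = 4 arrays each). The 8 within-pool differences were all positive, from 0.22 to 1.58 log2. The mean was 0.82 ± 0.56 log2 with octanoic acid (SD, n = 4 pools, limma adjusted p = 0.0196) and 0.87 ± 0.33 log2 with clean air (limma adjusted p = 0.0152), and no fold is given since both groups lay under the background. The negative controls themselves differed by a median of 0.28 log2 over all 8 pools, with 95% of them from -0.54 to 1.00, and 282 of the 5222 had a larger difference than Taar5. Centred on the negative controls, the octanoic acid difference of Taar5 was 0.36 log2 (limma adjusted p = 0.370) and the clean air difference 0.74 log2 (limma adjusted p = 0.0954). Over all 8 pools the difference as deposited was 0.84 ± 0.42 log2 (SD, n = 8 pools, limma adjusted p = 0.00125). That call held in 18 of 18 alternatives, with limma adjusted p up to 0.0460, but every reading behind it lay under the background. The octanoic acid call ended without pool 1 (0.57 log2, limma adjusted p = 0.0959) or pool 4 (0.85 log2, 0.0585), and the clean air call without pool 1 (0.79 log2, 0.0733) or pool 3 (0.75 log2, 0.0806).

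Taar3, a receptor for isoamylamine, did not pass the test in either treatment. With octanoic acid GFP+ cells read 8.65, 8.06, 6.71 and 7.86 log2, against 8.15, 7.80, 5.78 and 8.76 log2 in GFP- cells, and the difference was 0.20 ± 0.78 log2 (SD, n = 4 pools, limma adjusted p = 0.670). With clean air GFP+ cells read 8.88, 7.79, 8.01 and 7.99 log2, against 8.14, 7.85, 6.90 and 6.97 log2 in GFP- cells, and the difference was 0.70 ± 0.53 log2 (95% interval 0.09 to 1.31, limma adjusted p = 0.123). The values of GFP+ and GFP- cells overlapped, with pool 4 of octanoic acid lower in GFP+ cells by 0.90 log2 and higher by 0.25 to 0.93 log2 in the other 3. Leaving out that pool, the clean air difference was 0.70 log2 with a limma adjusted p of 0.0485.

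Taar1, the non-olfactory member, read below the background on all 16 arrays. GFP+ cells averaged 4.88 ± 0.14 log2 with octanoic acid, against 4.45 ± 0.15 log2 in GFP- cells, and clean air gave 4.59 ± 0.30 log2 in GFP+ cells and 4.50 ± 0.17 log2 in GFP- cells (SD, n = 4 arrays each). Its difference was 0.44 ± 0.25 log2 with octanoic acid (limma adjusted p = 0.103) and 0.08 ± 0.34 log2 with clean air (limma adjusted p = 0.794), with n = 4 pools each. Centred on the median of all genes, the Taar1 difference with octanoic acid was 0.74 log2 and passed the test (limma adjusted p = 0.00732). Of the 18 alternatives with octanoic acid, only this 1 gave a call. Centred on the negative controls, the difference was -0.019 log2 (limma adjusted p = 0.965). As deposited, the negative controls themselves differed by a median of 0.46 log2 with octanoic acid.

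**Figure D2:**
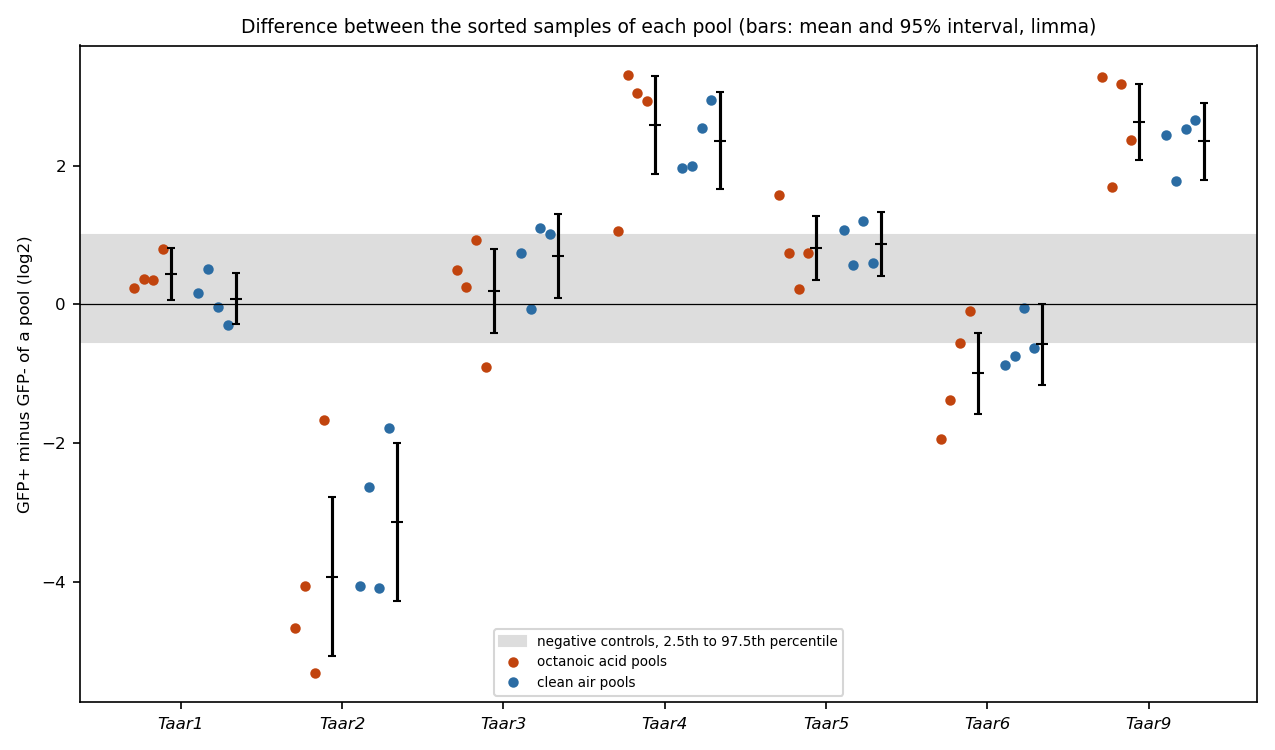
GFP+ minus GFP- in log2 (vertical axis) for each of the 8 pools, with the 7 genes along the horizontal axis. Octanoic acid pools lie left of clean air pools, and bars give the mean of 4 pools with its 95% limma interval. The grey band spans 95% of the negative controls by their means over all 8 pools (-0.54 to 1.00). Means of these controls over 4 pools spread wider than the band in both treatments, so it is not the range for the bars or single pools. Taar9 and Taar4 lie above 0 in all pools and Taar2 below 0 in all.

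Set among the 1091 odorant receptor genes, which share the sort and the cascade, 81 had a larger 8-pool difference than Taar9, 83 than Taar4, 512 than Taar3 and 804 than Taar6. The differences of Taar1 and Taar5, which read under the background on all arrays, and of Taar2, whose GFP+ mean did so, have no measured place in this order. The 1091 odorant receptors were not filtered by level, so the counts and medians given for them can include genes under the background. Odorant receptors were called in either direction in 61.2% of cases with octanoic acid, 61.0% with clean air and 73.1% over all 8 pools. The median 8-pool difference was 0.45 log2 for the 7 genes, 0.34 log2 for odorant receptors and 0.12 log2 for all genes. None of the 5222 negative controls had a larger difference than Taar9 or Taar4, and none a lower one than Taar2. The SD of the within-pool differences, pooled over both treatments, was 1.38 log2 for Taar2, 0.80 for Taar4, 0.59 for Taar9 and 0.30 for Taar1, against an odorant receptor median of 0.67 for the same quantity. The SDs of Taar2 and Taar1 rest in part or wholly on readings under the background.

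**Figure D3:**
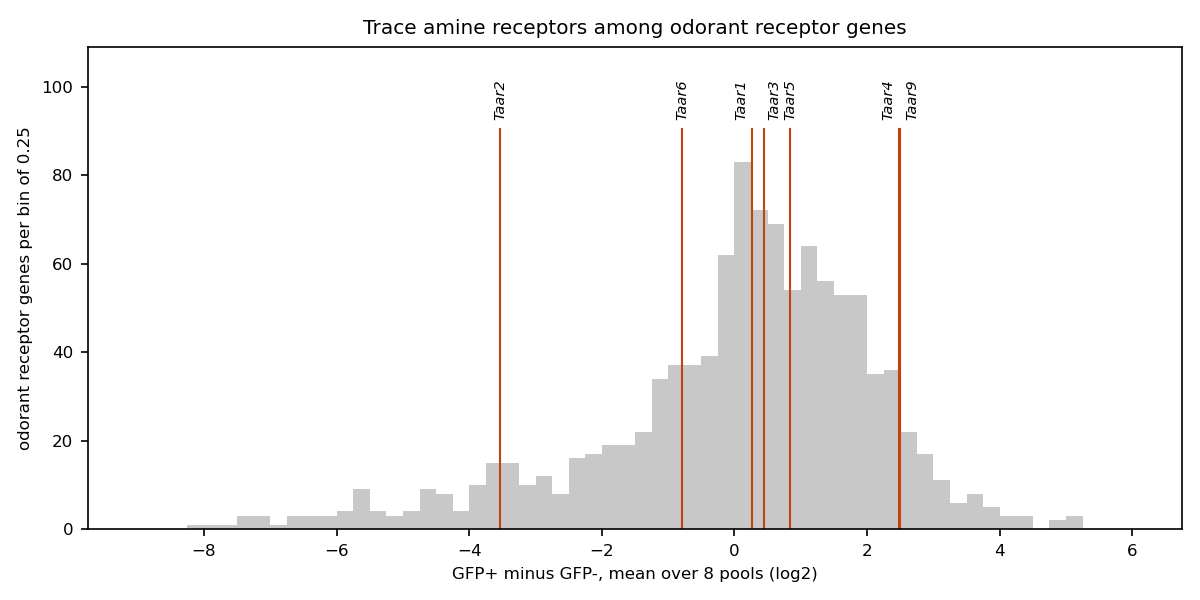
Histogram of the 8-pool mean GFP+ minus GFP- difference (horizontal axis, log2) of 1091 odorant receptor genes in bins of 0.25 log2, with counts of genes on the vertical axis and lines at the 7 trace amine receptors. Taar9 and Taar4 lie in the upper part, with 81 and 83 odorant receptors above them, and Taar2 in the lower tail. The lines of Taar1, Taar2 and Taar5 rest on deposited values that lie in part or wholly under the background. The odorant receptor genes were not filtered by level and can include genes under the background.

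Within the Taar cluster the measured genes run in the order Taar1 to Taar6, Taar7a, Taar7b, Taar7d, Taar7e, Taar7f, Taar8a, Taar8b, Taar8c and Taar9. The pseudogene Taar7c-ps, between Taar7b and Taar7d, is not on the array. Of the 15, 6 were higher, 6 lower and 3 not called over all 8 pools, where 26.7% of all genes and 73.1% of odorant receptors were called in either direction. Of the 14 neighbouring pairs of measured genes, 10 had differences of opposite sign, and of the 9 pairs in which both genes were called, 7 did. The 14 pairs include Taar1 and Taar5, which lay under the background on all arrays, and the genes not called. The 9 pairs include Taar5. Whether these counts differ from those of a random order was not tested. The Taar7 and Taar8 genes are near-identical copies whose probes may pick up each other's RNA, and their 8-pool differences were -1.78 log2 for Taar7a, 1.08 for Taar7b, -1.42 for Taar7d, 0.94 for Taar7e, -1.56 for Taar7f, 0.77 for Taar8a and -0.80 for Taar8b, all called, and 0.36 for Taar8c, which was not.

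**Figure D4:**
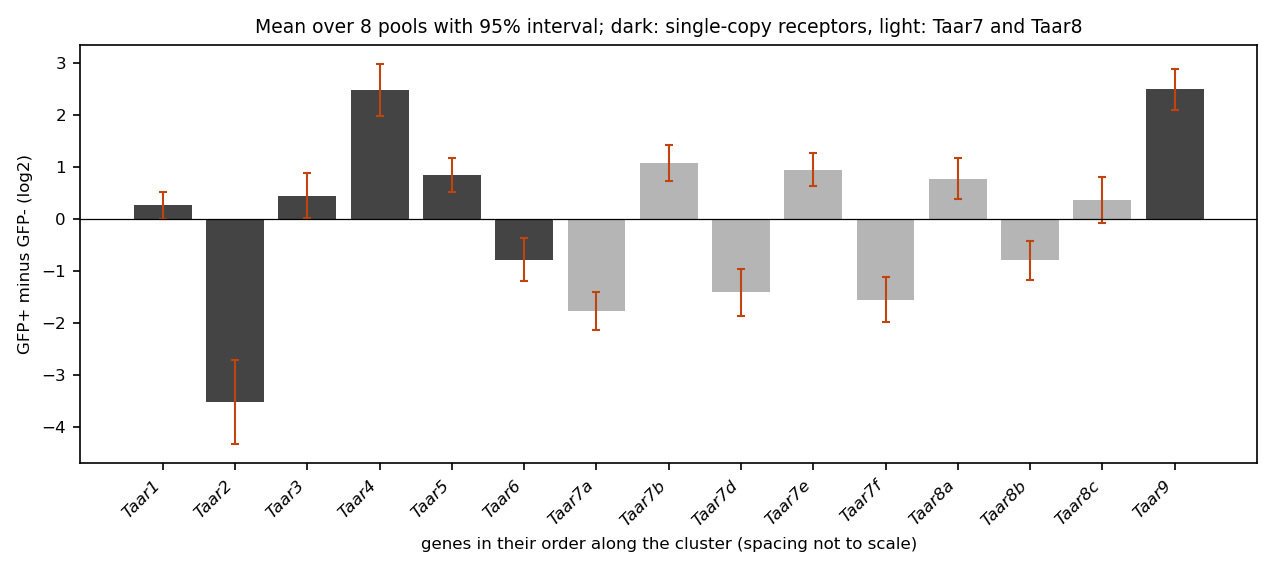
GFP+ minus GFP- in log2 over all 8 pools (vertical axis) of the 15 trace amine receptor genes in their order along the cluster, with 95% limma intervals. Dark columns are the 7 genes described here and light ones the Taar7 and Taar8 genes, with Taar4 and Taar9 highest and Taar2 lowest. Of 14 neighbouring pairs of measured genes, 10 have opposite signs. This count includes Taar1 and Taar5, which lay under the background on all arrays, and the genes not called.

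The genes with the most similar profiles over the 16 arrays were found by root-mean-square (RMS) distance of profiles centred on their own means, for the 5 members whose mean lay above the background. Taar9 was nearest to Olfr1281 (0.432 log2) and Olfr191 (0.453), and Taar4 to Olfr191 (0.558) and Olfr1102 (0.605). Taar2 was nearest to Olfr1196 (0.654) and to the MHC class II gene H2-Eb1 (0.666), with 8-pool differences of -4.35 and -2.82 log2. The mean of Taar2 lay above the background only through its GFP- arrays. Its GFP+ means, 5.66 log2 with octanoic acid and 6.16 log2 with clean air, lay under it. All distances of Taar2 therefore rest in part on readings under the background and largely restate its higher signal in GFP- cells. Taar3 was nearest to Olfr937 (0.455) and Lrrc27 (0.458), and Taar6 to Olfr1271 (0.459) and Cdk18 (0.474). Gene models with Gm or Rik symbols were left out of this search. The other genes had a median distance of 1.34 log2 from Taar9, 1.41 from Taar4, 2.00 from Taar2 and 0.844 from Taar3 and Taar6. Taar4 and Taar9 lay 0.761 log2 apart, and Taar2 and Taar9 3.13.

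In the cascade that the receptors feed into the median 8-pool difference was 0.19 log2, against 0.12 log2 for all genes. Of its 11 genes, 3 were higher and none lower over all 8 pools, where 13.1% of all genes were higher and 13.6% lower: the chloride channel Ano2 by 0.51 log2, adenylyl cyclase Adcy3 by 0.34 log2 and the G protein subunit Gng13 by 0.32 log2, while the channel subunit Cnga2, at 0.25 log2, did not pass (limma adjusted p = 0.0853). Of 11 genes of receptor choice and trafficking, with a median of 0.04 log2, 1 was higher and 1 lower. This share is near that of all genes. Reep1 was higher by 0.48 log2, and Lbr, the lamin B receptor of the nuclear envelope, stood at -2.26 log2. Emx2 at 0.35 log2 and Kdm1a at -0.25 log2 were not called. Of the 2 dorsal zone genes neither Nqo1 (0.06 log2) nor Acsm4 (-0.12 log2) was called, and of the 2 ventral genes Ncam2 was higher by 0.35 log2 while Nrp2, at 0.18 log2, did not pass.

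Other cell types differed between the sorted samples. All 7 measured leukocyte markers were lower in GFP+ cells in both treatments: the array means of the list ran from 6.35 to 7.40 log2 in GFP+ cells against 12.2 to 14.2 log2 in GFP- cells with octanoic acid, and from 5.85 to 7.16 log2 against 12.0 to 13.5 log2 with clean air. In GFP+ cells 3 of the 7 lay under the background. All 4 immature neuron markers were lower too, with array means of 8.09 to 8.51 log2 in GFP+ cells against 11.2 to 12.1 log2 in GFP- cells with octanoic acid, and of 8.10 to 8.54 log2 against 11.7 to 12.3 log2 with clean air. In GFP+ cells with octanoic acid 1 of these 4 lay under the background. Both measured progenitor markers were lower in both treatments, with both under the background in GFP+ cells and 1 of them also in GFP- cells, so no size is given. Array means of 6 mature neuron markers ran from 17.4 to 17.6 log2 in GFP+ cells against 17.2 to 17.4 log2 in GFP- cells with octanoic acid, and from 17.5 to 17.6 log2 against 17.1 to 17.4 log2 with clean air. Over all 8 pools 3 of the 6, which are also on the cascade list, were higher and none lower, with a median of 0.29 log2. Array means of 4 sustentacular markers ran from 8.38 to 11.3 log2 in GFP+ cells against 9.59 to 10.1 log2 in GFP- cells with octanoic acid, and from 8.96 to 9.98 log2 against 9.77 to 10.8 log2 with clean air. None of these 4 was called in either treatment. Over all 8 pools 1 was lower and none higher, with a median of -0.52 log2, where 13.6% of all genes were lower. In each of the 4 groups 1 of these markers lay under the background. The part of these cell types in the differences of the receptors was not tested.

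The question of the series is whether octanoic acid changes which receptors mark GFP+ cells. None of the 7 genes was called for the odor effect on the GFP+ minus GFP- difference, or for octanoic acid against clean air in GFP+ or in GFP- cells, and 0% of all genes were called in these comparisons. None of the 7 had an unadjusted limma p under 0.05, and 871, 716 and 741 of 19505 genes did in the same order of comparisons. Chance alone marks a share of about 0.05 of genes at this threshold, and each of these counts lies under that share. The smallest limma adjusted p over all genes was 0.94, 0.955 and 0.985. For the difference, Taar9 gave 0.28 log2 (95% interval -0.50 to 1.06), Taar4 0.22 (-0.77 to 1.22), Taar2 -0.79 (-2.41 to 0.83), Taar6 -0.42 (-1.25 to 0.41), Taar3 -0.50 (-1.36 to 0.35), Taar5 -0.05 (-0.70 to 0.61) and Taar1 0.35 (-0.17 to 0.88). These intervals cover shifts of more than 1 log2 unit in at least one direction for Taar2, Taar3, Taar4, Taar6 and Taar9, so shifts of that size are not excluded with 4 pools a treatment. The GFP+ means of Taar2 lay under the background in both treatments, as did all group means of Taar1 and Taar5. The sizes given for these genes are therefore not measured shifts.

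In GFP+ cells alone, octanoic acid minus clean air was -0.35 log2 for Taar9 (95% interval -1.05 to 0.35), -0.11 for Taar4 (-1.08 to 0.87), -0.49 for Taar2 (-1.78 to 0.79), -0.31 for Taar6 (-1.26 to 0.64), -0.34 for Taar3 (-1.18 to 0.50), 0.23 for Taar5 (-0.33 to 0.79) and 0.30 for Taar1 (-0.11 to 0.70). In GFP- cells Taar9 stood at -0.63 log2, or 1.55-fold lower with octanoic acid, which did not pass (95% interval -1.34 to 0.08, limma unadjusted p = 0.0777, adjusted p = 0.985). The other 6 genes lay between -0.33 log2 for Taar4 and 0.30 log2 for Taar2 in GFP- cells. In GFP+ cells the values of Taar1, Taar2 and Taar5 compare means under the background in both treatments. In GFP- cells this holds for Taar1 and Taar5.

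**Figure D5:**
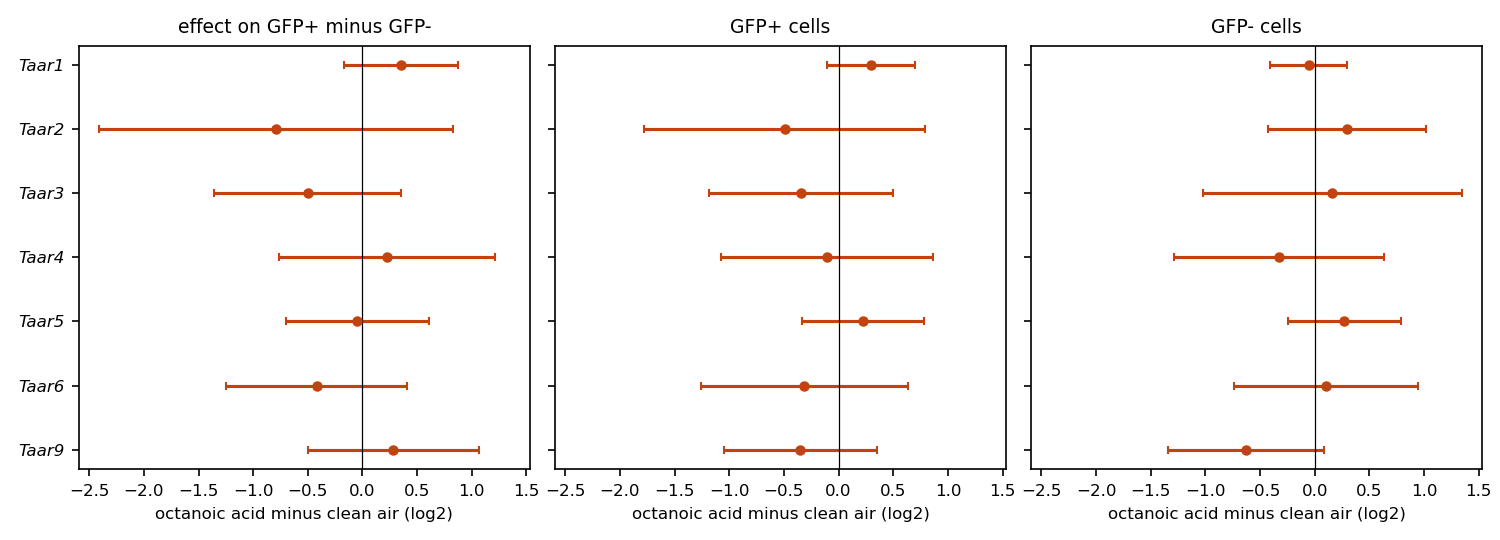
Octanoic acid minus clean air (log2, with 95% intervals) for each of the 7 genes, for the GFP+ minus GFP- difference, in GFP+ cells and in GFP- cells, from 4 pools per treatment. Every interval includes 0.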

How the data were processed

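The authors deposited 1 log2 signal for each probe set on each array; per the submitters' processing notes the authors used Affymetrix Expression Console. Version, probe summary and background correction are not given in the sources used here. That the unit is log2 follows from the range of the values (2.13 to 19.5, array medians 7.00 to 7.39). Of 28846 probe sets, 6640 were controls, 2634 had no gene name and 19572 had 1 gene symbol from the platform annotation; for a gene with several the brightest was kept, leaving 19505 genes. Each array had its group from its title and no array was left out.

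GFP+ minus GFP- was taken within each pool, since the 24 mice in pools of 3 show that both sorted samples come from the same mice (correlations of GFP+ and GFP- deviations from -0.238 to 0.389). limma 3.58.1 in R 4.3.3 (lmFit, eBayes, two-sided) fitted all 19505 genes, with Benjamini-Hochberg adjustment at 0.05, and was tested on simulated data. The labels also number odor and vehicle pools alike. Correlations of the differences of same-numbered pools were 0.179, 0.110, 0.237 and 0.1, and a replicate block on that number, fitted for the 3 comparisons of octanoic acid with clean air, gave no call, as without it.

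The text names all 7 receptors, the 4 largest differences of each list of receptor-related genes (cell type markers are given by list) and, for each receptor above the background, the 2 genes most alike. The receptors and lists were chosen with earlier results of these data known. Alternatives varied the scaling, the filter on dim genes, probe sets, the variance prior, the pools, the pairing and the features fitted. Marker genes without a named probe set were not used here.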

Additional observations from a re-analysis of the deposited data

Results flagged for a closer look

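The GFP+ minus GFP- difference of Taar4 in octanoic acid pool 1 was 1.06 log2, far from the 2.94 to 3.30 log2 of the other 3 pools (gap over range 0.839). Of the 42 groups of 4 values looked at in this way, it was the only one to stand apart, and chance alone marks about 1 in 20 such groups.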

How the results depend on the processing

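Taar2, Taar4 and Taar9 were called in the same direction under all 19 alternatives in both treatments and over all 8 pools. Of 786 recomputed differences of the 7 genes, 725 kept their direction and side of the threshold, 37 changed sign, 8 gained a call and 16 lost one; the causes were not tested. The number lower with octanoic acid was 1 instead of 2 with arrays centred on all genes or on odorant receptors and with quantile normalization. It was also 1 without the pairing of GFP+ and GFP- cells in a pool and with negative controls fitted. Without odor pool 3 and vehicle pool 4 it was 1 as well, and 1 to 2 when 1 pool was left out. Over all 8 pools the number higher was 5 instead of 3 with arrays centred on all genes. The number lower over all 8 pools was 1 instead of 2 without the pairing of GFP+ and GFP- cells in a pool. The replicate block between odor and vehicle pools, fitted for the 3 comparisons of octanoic acid with clean air, gave no call, as without it (smallest limma adjusted p over all genes 0.781, 0.826 and 0.915).

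Taar5 kept its call in 15 of 18 alternatives with octanoic acid, 14 of 18 with clean air and 18 of 18 over all 8 pools. Beside the losses given above, the call was lost in clean air with odorant receptor centring (0.69 log2, limma adjusted p = 0.141). Taar6 kept its octanoic acid call in 11 of 19. Taar3 gained one in clean air with median centring (0.97 log2, limma adjusted p = 0.0184) and quantile normalization (0.89, 0.0374), and so over 8 pools (0.74 and 0.64), also without odor pool 4 (0.63). Median centring gave Taar1 0.55 log2 over 8 pools and put its octanoic acid levels at 5.03 log2 in GFP+ cells and 4.28 log2 in GFP- cells.

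Signs turned with arrays centred on the negative controls for Taar1 with octanoic acid (-0.019), with clean air (-0.041) and over 8 pools (-0.030), for Taar3 with octanoic acid (-0.26), for the odor effect of Taar4 (-0.11) and Taar9 (-0.051), and for Taar1 between GFP- cells (0.25). They turned with odorant receptor centring for Taar1 in clean air (-0.089), the odor effect of Taar5 (0.20), Taar4 between GFP+ cells (0.013) and Taar6 between GFP- cells (-0.026). Without odor pool 3 and vehicle pool 4 they turned for Taar3 with octanoic acid (-0.048), the odor effect of Taar2 (0.13) and Taar5 (0.064), Taar2 (0.28) and Taar4 (0.17) between GFP+ cells, and Taar1 (0.0055) and Taar6 (-0.33) between GFP- cells. Leaving out 1 pool gave -0.048 to 0.56 for Taar3 with octanoic acid and -0.057 to 0.21 for Taar1 with clean air; -0.015 to 0.74 for Taar4 and -0.30 to 0.15 for Taar5 in the odor effect; -1.09 to 0.056 for Taar2, -0.62 to 0.027 for Taar3, -0.49 to 0.22 for Taar4 and -0.70 to 0.059 for Taar6 between GFP+ cells; and -0.11 to 0.0062 for Taar1, -0.22 to 0.77 for Taar3 and -0.27 to 0.37 for Taar6 between GFP- cells.

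Over all genes, higher and lower calls with octanoic acid were 1221 and 2126 as deposited, 7791 and 1715 with median centring, 2587 and 2026 with quantile normalization, 689 and 1576 with odorant receptor centring and 304 and 3479 with negative-control centring, with medians of all genes of 0.11, 0.42, 0.15, 0.19 and -0.35 log2. With clean air they were 1138 and 1868, 6082 and 1571, 1813 and 1783, 498 and 1856, and 463 and 1864 (medians 0.11, 0.38, 0.13, -0.06 and -0.01). Over 8 pools they were 2555 and 2651, 12174 and 2023, 4621 and 2560, 1006 and 2356, and 503 and 3478 (medians 0.12, 0.41, 0.15, 0.07 and -0.17).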
